A study of Homo sapiens with 4 samples.

Results

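The aldo-keto reductase family was followed through 2 human liver cancer lines, as 10 genes: AKR1A1, AKR1B1, AKR1B10, AKR1C1, AKR1C2, AKR1C3, AKR1C4, AKR1D1, AKR7A2 and AKR7A3. They were chosen by name, with earlier results of these data known, and all 10 were among the 32479 genes of the deposited table. The 4 groups were HepG2 cells given 20 uM PF429242 for 24 h, untreated HepG2 cells at 24 h, PLC/PRF/5 cells given 20 uM PF429242 for 24 h and untreated PLC/PRF/5 cells at 24 h. All were labelled as wild type, each group held 1 library, and no vehicle was named for the untreated cells. HepG2 came from a hepatoblastoma and PLC/PRF/5 from a hepatoma that carries integrated hepatitis B virus DNA. PF429242 inhibits site-1 protease, the Golgi enzyme that makes the first cut in the release of the sterol regulatory element-binding proteins and ATF6 from their membranes.

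Aldo-keto reductases are cytosolic enzymes that use NADPH to reduce aldehydes and ketones to alcohols. In the liver they act on steroid hormones, bile acid precursors, retinal, sugars, the products of lipid peroxidation and drugs. Several, in particular AKR1B10 and AKR1C1 to AKR1C3, are known targets of NRF2, the transcription factor that answers oxidative and electrophilic stress.

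Levels are given in FPKM, fragments counted per kilobase of gene and divided by library depth, so that genes of unlike length can be set side by side. The libraries held between 16722204 and 21387301 counted fragments, and between 11428 and 12441 genes reached 1 FPKM. Mitochondrial genes took 27.6% of the fragments in treated HepG2 and 16.6% in control HepG2, and 28.2% in treated and 21.3% in control PLC/PRF/5. By construction, fragments counted there lower the FPKM of all other genes. The median log2 ratio of treated over control, over all genes that reached 1 FPKM in either library, was -0.17 in HepG2 and -0.13 in PLC/PRF/5, and -0.48 and -0.43 after rescaling every library to the same sum of FPKM (the TPM scale). All 9 hepatocyte markers, among them ALB and HNF4A, were present in each library. Marker lists for endothelial cells, fibroblasts and blood each summed to 1.37 FPKM or less in each. These sums leave out COL1A2, KDR, PTPRC and HBB, for which no row was found in the deposited table. With 1 library in a group there is no replicate spread, so the 95% intervals below cover counting error only and compare libraries. In bulk RNA, fewer cells that express a gene and less RNA per cell cannot be told apart.

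The AKR1C genes lie side by side on chromosome 10 and are close copies, which bears on every value given for them. The coding sequences of AKR1C1 and AKR1C2 were 98.0% identical and differed at 19 of 969 bases. AKR1C1 was 91.4% identical to AKR1C3 and 88.8% identical to AKR1C4. The second coding exon (168 bases in each, GENCODE 29 transcripts on GRCh38) shows how the copies differ. Capitals mark the bases that are not the same as in AKR1C1: 10 in AKR1C2, 9 in AKR1C3 and 11 in AKR1C4, all in the first part of the exon, before a long run shared by all 4 genes. The exons lie at chr10:4965914-4966081 (plus strand) for AKR1C1, chr10:5001514-5001681 (minus strand) for AKR1C2, chr10:5096410-5096577 (plus strand) for AKR1C3 and chr10:5200181-5200348 (plus strand) for AKR1C4.
AKR1C1: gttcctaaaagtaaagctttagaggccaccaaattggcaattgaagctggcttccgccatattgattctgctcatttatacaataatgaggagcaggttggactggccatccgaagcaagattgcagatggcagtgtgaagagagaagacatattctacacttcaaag
AKR1C2: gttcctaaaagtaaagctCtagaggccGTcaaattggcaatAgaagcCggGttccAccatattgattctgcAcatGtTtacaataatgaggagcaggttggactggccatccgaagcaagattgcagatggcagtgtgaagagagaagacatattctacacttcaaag
AKR1C3: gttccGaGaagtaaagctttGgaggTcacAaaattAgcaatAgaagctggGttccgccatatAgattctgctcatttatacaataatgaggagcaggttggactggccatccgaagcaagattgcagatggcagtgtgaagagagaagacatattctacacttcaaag
AKR1C4: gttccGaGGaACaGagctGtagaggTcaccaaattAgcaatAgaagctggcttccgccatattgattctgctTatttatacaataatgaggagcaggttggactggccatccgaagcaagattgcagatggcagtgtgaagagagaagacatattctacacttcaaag

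Read length was not given in the sources used here, nor were strand and the treatment of reads that match several genes. Of the 50-base words in their annotated transcripts, AKR1C1 shared 28.6% and AKR1C2 shared 38.9% with other genes of the family, mostly with each other. The shared part was 4.53% for AKR1C3, 5.85% for AKR1C4, 23.3% for AKR7A3 (mostly with AKR7L), 5.84% for AKR7A2 and 9.70% for AKR1B10 (with AKR1B15). It was 0 for AKR1A1, AKR1B1 and AKR1D1. With 75-base words the shared part was 21.9% for AKR1C1 and 30.1% for AKR1C2, and with 100-base words 16.7% and 23.1%. The split of fragments between AKR1C1 and AKR1C2, and the low values of AKR1C4 and AKR7A3, are uncertain for this reason. A share of words is not a share of fragments, so the size of that uncertainty is not known.

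AKR1C1 (ENSG00000187134, chr10:4963253-4983283, plus strand), which reduces progesterone to an inactive product, had 114.8 FPKM in treated HepG2 and 105.7 FPKM in control HepG2. It had 35.5 FPKM in treated and 16.7 FPKM in control PLC/PRF/5. Both HepG2 libraries were above both PLC/PRF/5 libraries, and the treated PLC/PRF/5 library was well above its control. AKR1C2 (ENSG00000151632, chr10:4987400-5018031, minus strand), which reduces the androgen dihydrotestosterone, had 29.3 FPKM in treated and 26.7 FPKM in control HepG2, and 18.3 FPKM in treated and 13.8 FPKM in control PLC/PRF/5. AKR1C3 (ENSG00000196139, chr10:5035354-5107686, plus strand), which forms testosterone and prostaglandin F, had 34.9 FPKM in treated and 37.8 FPKM in control HepG2, and 22.5 FPKM in treated and 13.2 FPKM in control PLC/PRF/5. For these 3 genes the order of the lines was the same, HepG2 above PLC/PRF/5, with and without the inhibitor. An antisense gene, AL391427.1, overlaps AKR1C2, and without strand its reads cannot be told apart from those of AKR1C2.

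AKR1C4 (ENSG00000198610, chr10:5195462-5218949, plus strand) is the liver enzyme of the cluster, known for its part in bile acid synthesis. It had 1 fragment in treated HepG2, 0 in control HepG2, 7 in treated PLC/PRF/5 and 10 in control PLC/PRF/5, or 0.0257, 0, 0.215 and 0.244 FPKM. It did not reach 1 FPKM in any library. In control HepG2 a count of 0 allows up to 3 fragments, or 0.0937 FPKM. The exact 95% counting interval of the ratio of control HepG2 over control PLC/PRF/5 ran from 0 to 0.571. This is the other way round from AKR1C1, AKR1C2 and AKR1C3.

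AKR1B10 (ENSG00000198074, chr7:134527592-134541408, plus strand) reduces retinal and is known for its high level in liver and lung cancers. It had 119.6 FPKM in treated and 101.7 FPKM in control HepG2, and 6.04 FPKM in treated and 3.72 FPKM in control PLC/PRF/5. No other gene of the family separated the lines as far. Its neighbour AKR1B1 (ENSG00000085662, chr7:134442350-134459284, minus strand) is aldose reductase, which turns glucose into sorbitol. AKR1B1 had 19.6 FPKM in treated and 24.6 FPKM in control HepG2, and 10.6 FPKM in treated and 6.76 FPKM in control PLC/PRF/5. The coding sequences of this pair were 76.1% identical, and AKR1B1 shared no 50-base word with the family.

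AKR1D1 (ENSG00000122787, chr7:138002324-138117986, plus strand) is the steroid reductase that sets the bent ring shape of bile acids. It had 3.30 FPKM in treated and 5.64 FPKM in control HepG2, from 229 and 322 fragments. In PLC/PRF/5 it had 0.311 FPKM in the treated and 0.370 FPKM in the control library, from 18 and 27 fragments. Thus it reached 1 FPKM in HepG2 only.

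AKR1A1 (ENSG00000117448, chr1:45550543-45570049, plus strand), a broad aldehyde reductase, was the most even gene of the family. It had 10.5 FPKM in treated and 16.5 FPKM in control HepG2, and 11.7 FPKM in treated and 13.0 FPKM in control PLC/PRF/5. AKR7A2 (ENSG00000053371, chr1:19303965-19312146, minus strand) reduces succinic semialdehyde and the dialdehyde of aflatoxin. It had 12.1 FPKM in treated and 16.9 FPKM in control HepG2, and 10.2 FPKM in treated and 10.5 FPKM in control PLC/PRF/5. For both, control HepG2 was the highest library. AKR7A3 (ENSG00000162482, chr1:19282558-19289250, minus strand), a further aflatoxin aldehyde reductase, had 0.283 FPKM in treated and 0.591 FPKM in control HepG2, and 0.145 FPKM in treated and 0.5003 FPKM in control PLC/PRF/5. It rested on 13 fragments or fewer in each library.

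**Figure D1:**
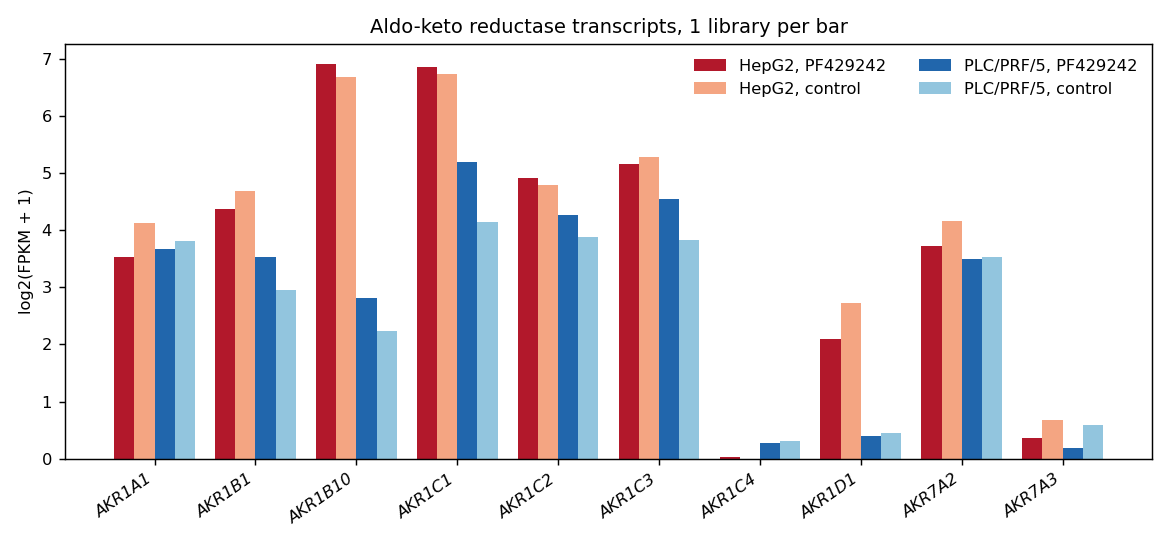
Level of the 10 aldo-keto reductase genes, as log2(FPKM + 1), with 1 bar for each library and no error bar, since a group held 1 library. AKR1B10 and AKR1C1 stood above 100 FPKM in both HepG2 libraries, while AKR1C4 and AKR7A3 stayed below 1 FPKM in all 4.

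The order within the family differed between the lines. In treated HepG2, AKR1B10 (rank 142 of 32479 genes) and AKR1C1 (rank 152) led, with intervals of 116.02 to 123.18 FPKM and 113.25 to 116.40 FPKM that overlapped. In control HepG2 the same 2 genes led in the other order, again with overlapping intervals, followed by AKR1C3, AKR1C2 and AKR1B1. In both PLC/PRF/5 libraries AKR1C1 led alone, at rank 713 with the inhibitor and rank 2160 without, and AKR1B10 was in seventh place. In control PLC/PRF/5 the intervals of AKR1C2 and AKR1C3, and of AKR1C3 and AKR1A1, overlapped. The order depends on the gene lengths in the FPKM. In treated HepG2, AKR1C1 held 20480 fragments over 8765 bases and AKR1B10 held 4314 fragments over 1773 bases.

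In HepG2 no measured gene of the family differed by 2-fold between treated and control cells on the deposited scale, while on the TPM scale AKR1D1 was lower by that much (ratio 0.464). AKR1D1 had the lowest ratio of treated over control among the 8 measured genes (those at 1 FPKM or more in 2 or more libraries), at 0.584 (95% counting interval 0.491 to 0.694). AKR1A1 stood at 0.637 (0.575 to 0.706), AKR7A2 at 0.720 (0.632 to 0.820) and AKR1B1 at 0.797 (0.741 to 0.857). These 4 ratios were below 1 on each of the 4 scalings tried, and below the all-gene median ratio of 0.887 (of FPKM + 1). AKR1C3 was at 0.923 (0.874 to 0.975), which turned to 1.07 with median-of-ratios scaling and to 1.06 with totals that leave out mitochondrial genes. AKR1B10 was at 1.18 (1.12 to 1.23), AKR1C2 at 1.09 (1.04 to 1.15) and AKR1C1 at 1.09 (1.06 to 1.11), and these 3 turned to 0.933, 0.869 and 0.862 on the TPM scale. Hence their direction in HepG2 depends on the scaling, although they stood above the all-gene median on each scale. By log2(FPKM + 1), 3 of the 8 were above 0 and 5 below, where 17.6% of 12347 genes were above 0 and 82.4% below. On this scale none was higher by 2-fold or more (1.00% of all genes) and none was lower by that much (2.14% of all genes). AKR7A3 had a ratio of 0.479, with an interval from 0.160 to 1.32 that holds 1.

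In PLC/PRF/5 the genes of the AKR1B and AKR1C groups were higher in treated than in control cells. AKR1C1 had the highest ratio, 2.12 (2.03 to 2.22), and was the 1 member of the 7 that reached 1 FPKM in this line to pass 2-fold, which 1.48% of 13144 genes did. AKR1C3 stood at 1.70 (1.57 to 1.84), AKR1B10 at 1.63 (1.30 to 2.04), AKR1B1 at 1.56 (1.39 to 1.76) and AKR1C2 at 1.33 (1.25 to 1.41). All 5 stayed above 1 on each scaling; on the TPM scale, the lowest for each, they were 1.68, 1.35, 1.29, 1.24 and 1.05 in that order. The other genes lay near or below 1. AKR1A1 was at 0.896 (0.807 to 0.995), AKR7A2 at 0.970 (0.834 to 1.13) and AKR1D1 at 0.840 (0.436 to 1.58). The last 2 intervals hold 1, and AKR7A2 turned to 1.06 with median-of-ratios scaling and with totals that leave out mitochondrial genes. AKR1C4 had 0.882 (0.285 to 2.57) and AKR7A3 had 0.291 (0.0531 to 1.06), both from few fragments. By log2(FPKM + 1), 5 of the 7 were above 0, where 29.1% of all genes were, and 2 were below, where 70.9% were. None was lower by 2-fold or more (1.82% of all genes).

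Some hepatocyte transcripts were also higher in treated PLC/PRF/5. The log2 ratio was 0.98 for AHSG, 0.88 for ALB and 0.68 for TTR, and -0.90 for FGB. On the deposited scale, 6 of the 9 hepatocyte markers were above 0 and 3 below in PLC/PRF/5, with 0 above and 9 below in HepG2. Of all genes 29.1% were above 0 in PLC/PRF/5 and 82.4% below in HepG2. Their summed level was 3104 FPKM in treated and 2716 FPKM in control PLC/PRF/5, and 6465 FPKM in treated and 7343 FPKM in control HepG2. The part of this shift in the AKR ratios was not tested.

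**Figure D2:**
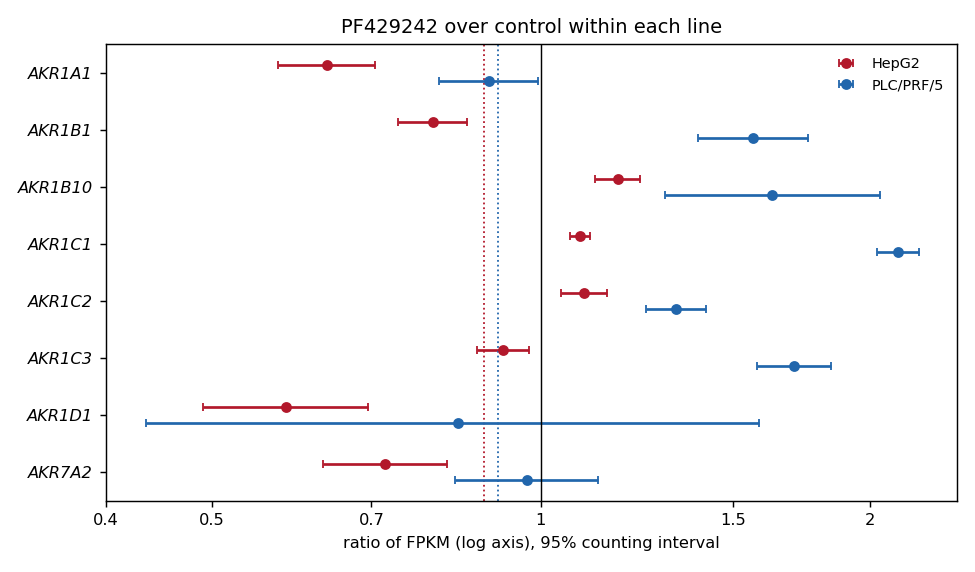
Ratio of FPKM, PF429242 over control, in HepG2 (red) and PLC/PRF/5 (blue) for the 8 measured genes, on a log axis, with bars for the 95% counting interval. Dotted lines mark the median of all genes in each line. On the deposited scale 5 genes lie above 1 in PLC/PRF/5, led by AKR1C1 at 2.12, while the HepG2 points lie between 0.584 and 1.18; on the TPM scale none of the HepG2 points is above 1.

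**Figure D3:**
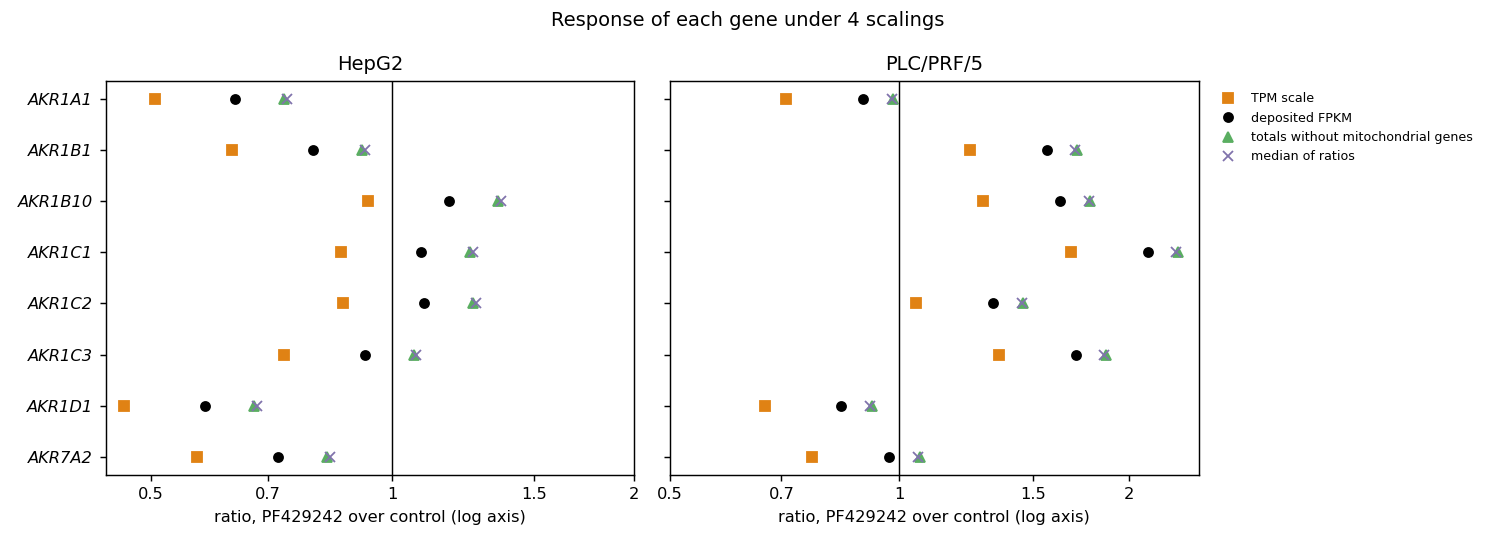
The same ratios under 4 scalings, in HepG2 (left) and PLC/PRF/5 (right), on log axes: the TPM scale, the deposited FPKM, totals without mitochondrial genes, and median of ratios. In HepG2 the points of AKR1B10, AKR1C1, AKR1C2 and AKR1C3 fall on either side of 1 by scaling, while in PLC/PRF/5 the 5 AKR1B and AKR1C genes stay above 1.

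The lines were then set against each other in their response, as the log2 ratio in PLC/PRF/5 minus that in HepG2, which is little moved by a scaling shared by both lines. AKR1C1 differed by 0.92 (1.04 in PLC/PRF/5 and 0.12 in HepG2), AKR1B1 by 0.89 (0.58 and -0.31) and AKR1C3 by 0.84 (0.73 and -0.11). These differences exceeded those of 97.7%, 97.5% and 97.1% of the 11062 genes that reached 1 FPKM in both lines. Without the pseudocount, the treated over control ratio was 1.95 times as high in PLC/PRF/5 as in HepG2 for AKR1C1 (95% counting interval 1.86 to 2.05), 1.96 times for AKR1B1 (1.71 to 2.25) and 1.85 times for AKR1C3 (1.68 to 2.03). The difference was 0.46 for AKR1A1, 0.40 for AKR7A2, 0.35 for AKR1B10 and 0.26 for AKR1C2. For AKR1D1, with 18 and 27 fragments in PLC/PRF/5, it was 0.56, and without the pseudocount 0.52 with an interval of -0.37 to 1.42 that holds 0. The median difference over the 11062 genes, which leave out AKR1D1, was 0.06, so that a difference above 0 was the commoner case. The differences of AKR1A1, AKR7A2, AKR1B10 and AKR1C2 exceeded those of 90.5%, 88.2%, 85.35% and 78.5% of these genes. AKR1C1 and AKR1C2, the closest copies, differed in the response difference by more than their counting intervals. Those intervals leave out the uncertain split of fragments between the 2 genes. With 1 library in a group, whether the response differs between the lines could not be tested.

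A shared effect of the inhibitor was fitted with limma on log2(FPKM + 1) over all 4 libraries, with the line as a block, so that the 2 lines serve as the repeats. No gene of 12838 passed an adjusted p of 0.05 in either direction (0.00% of genes). At an unadjusted p under 0.05, 244 genes were higher and 2244 lower, and limma-voom on the recovered fragments also called 0, with 185 higher and 2916 lower at that level. In the fit on log2(FPKM + 1), AKR1B10 had the lowest unadjusted limma p of the family, 0.021, and a limma adjusted p of 0.205. Its log2 effect was 0.40 ± 0.11 (moderated SE, n = 2 lines), and it was higher with the inhibitor in both lines. Each SE here is moderated, with 3.04 prior degrees of freedom drawn from all genes beside 1 residual degree of freedom. It is not the spread of the 2 lines alone. AKR1C1 had the highest effect, 0.58 ± 0.24, with a limma adjusted p of 0.287. AKR1A1 was at -0.37 ± 0.14, with a limma adjusted p of 0.258, and AKR1D1 at -0.35 ± 0.19, with a limma adjusted p of 0.368. Both were lower with the inhibitor in both lines on the deposited scale. For AKR1D1 in PLC/PRF/5 the ratio was 0.840, with a counting interval of 0.436 to 1.58 that holds 1. For AKR1A1 in PLC/PRF/5 it was 0.896, and 0.977 with median-of-ratios scaling. In limma-voom the lowest adjusted p and the lowest effect of the family were those of AKR1D1 (limma-voom adjusted p of 0.147, log2 effect -0.70), and AKR1B10 had a limma-voom adjusted p of 0.213. In the fit on log2(FPKM + 1), the limma adjusted p of the other 4 lay between 0.263 for AKR1C2 and 0.759 for AKR1B1. On the TPM scale AKR1A1 passed, with a limma adjusted p of 0.044 (0.044 to 1 over 12 settings). Of the 16340 genes tested there, 4922 were called lower and 65 higher. That scale multiplies the treated over control ratio of every gene by 0.79 in both lines.

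The lines differed in most of the family. Among the controls, AKR1B10 was 27.4-fold higher in HepG2 than in PLC/PRF/5 (95% counting interval 23.1 to 32.6), and among treated cells 19.8-fold (17.1 to 23.1). AKR1D1 was 15.3-fold higher in control HepG2 (10.3 to 23.5) and 10.6-fold in treated HepG2 (6.57 to 18.2). AKR1C1 followed with 6.31-fold among the controls (6.07 to 6.56) and 3.23-fold among treated cells (3.14 to 3.33). AKR1B1 was 3.64-fold higher among the controls and 1.86-fold among treated cells, AKR1C3 2.86-fold and 1.55-fold, AKR1C2 1.94-fold and 1.60-fold, and AKR7A2 1.60-fold and 1.19-fold. The gap between the lines was smaller in treated cells for these genes, although for AKR1D1 the intervals overlapped. This is the response difference given above in another form and not a further result. AKR1A1 was 1.26-fold higher in HepG2 among the controls, while among treated cells its ratio was 0.898, with an interval of 0.804 to 1.003, and turned to 1.05 on the TPM scale. By log2(FPKM + 1), 5 of the 8 measured genes were higher by 2-fold or more in control HepG2, where 10.0% of 13861 genes were, and 3 of 8 in treated HepG2, where 5.87% of 13285 genes were. Above 0 were 8 of 8 genes among the controls (46.7% of all genes) and 7 of 8 among treated cells (43.3%). Below 0 were 0 of 8 among the controls (53.3% of all genes) and 1 of 8, AKR1A1, among treated cells (56.7%). None was lower by 2-fold or more, where 13.1% of genes were among the controls and 12.0% among treated cells.

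In the limma fit with treatment as the block, 7 of the 8 measured genes were higher in HepG2, and none lower. Of all 12838 genes tested, 23.1% were called higher and 31.8% lower, so that a call for the line was common. The log2 effect was 4.27 ± 0.11 for AKR1B10 (SE, 2 libraries a line, limma adjusted p = 0.000873), 2.13 ± 0.24 for AKR1C1 (0.00571), 2.00 ± 0.19 for AKR1D1 (0.00441) and 1.28 ± 0.23 for AKR1B1 (0.0151). It was 1.03 ± 0.22 for AKR1C3 (limma adjusted p = 0.0223), 0.78 ± 0.09 for AKR1C2 (0.00658) and 0.43 ± 0.12 for AKR7A2 (0.0476), while AKR1A1 was not called (0.09 ± 0.14, limma adjusted p = 0.618). The size for AKR1D1 depends on the pseudocount, since the gene is low in PLC/PRF/5: its log2 effect was 0.82 with a pseudocount of 5, 3.33 with 0.1 and 3.68 in limma-voom, above that of AKR1C1 in the last 2. The call for AKR7A2 held in 5 of 12 settings and those for the other 6 in each setting that kept the gene. The 2 libraries of a line differ in treatment and are not known to be separate cultures of 1 condition. These p-values thus measure how far the gap repeats with and without the inhibitor, against a moderated SE that borrows from all genes. Among hepatocyte markers, 8 of 9 were called higher in HepG2 and 1, FGB, lower, and their part in the gap was not tested.

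**Figure D4:**
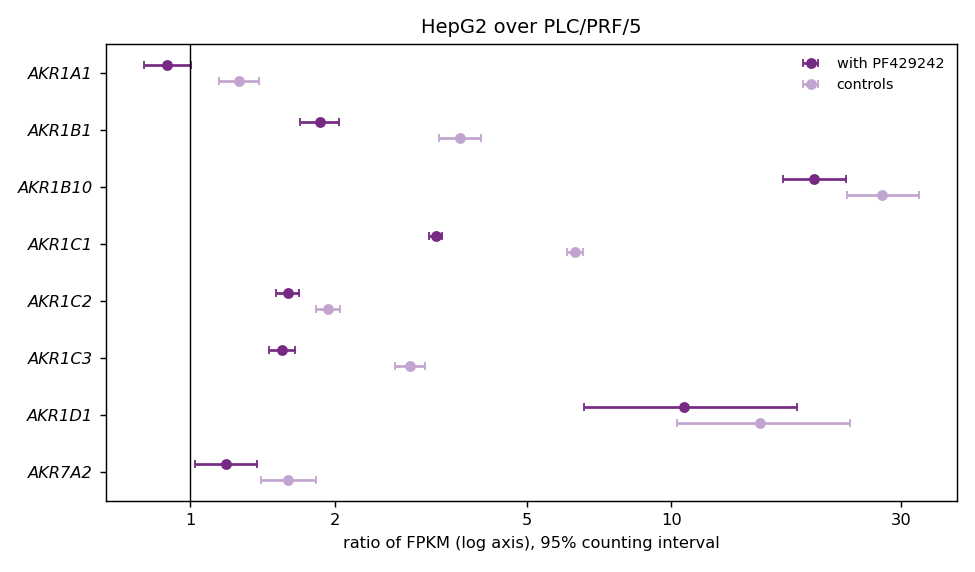
Ratio of FPKM, HepG2 over PLC/PRF/5, with PF429242 (dark) and in controls (light), for the 8 measured genes on a log axis, with bars for the 95% counting interval. The gap runs from 0.898 for AKR1A1 among treated cells to 27.4 for AKR1B10 among controls, and 7 of the 8 genes lie above 1 in both conditions.

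Within the AKR1C cluster the share of each gene differed between the lines. AKR1C1 took 75.6% of AKR1C fragments in treated HepG2 (95% exact Clopper-Pearson interval 75.05 to 76.07) and 74.3% in control HepG2 (73.7 to 74.9). In PLC/PRF/5 it took 60.1% in the treated library (59.0 to 61.1) and 51.0% in the control (49.7 to 52.2). AKR1C2 took 14.2% in treated and 13.9% in control HepG2, and 22.9% in treated and 31.0% in control PLC/PRF/5. The intervals of the PLC/PRF/5 libraries did not overlap for AKR1C1 or for AKR1C2. AKR1C3 took 10.2% in treated and 11.8% in control HepG2, and 17.0% in treated and 17.9% in control PLC/PRF/5. These are shares of fragments, so a longer gene takes more of them, and they do not depend on the scaling of the libraries. The split between AKR1C1 and AKR1C2 is uncertain by an unknown amount, which the intervals leave out.

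**Figure D5:**
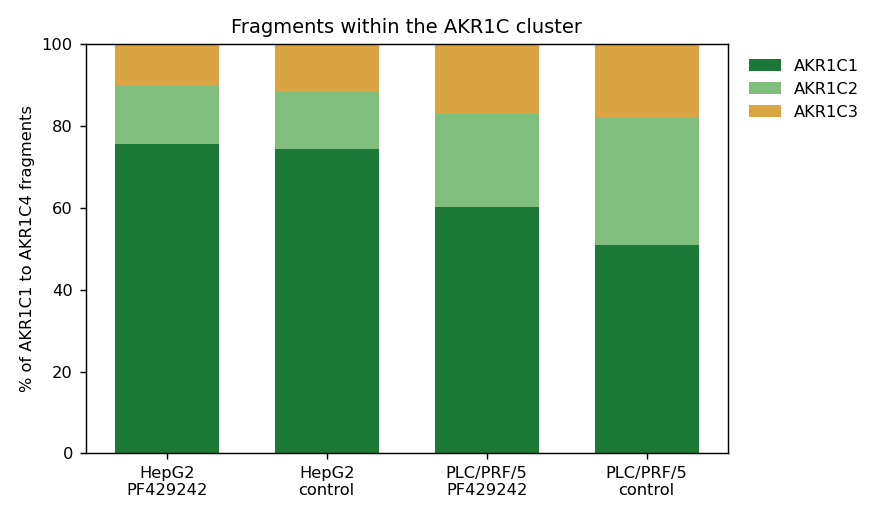
Share of AKR1C1, AKR1C2 and AKR1C3 in the fragments of AKR1C1 to AKR1C4, in percent, for each library. AKR1C4 took 0.162% or less and is not visible, and the AKR1C1 share is 60.1% in treated and 51.0% in control PLC/PRF/5.

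Summed over the cluster, AKR1C fragments came to 1332 of each 1000000 in treated and 1247 in control HepG2, and to 518 in treated and 288 in control PLC/PRF/5. The ratio of treated over control was 1.07 in HepG2 (95% counting interval 1.05 to 1.09) and 1.80 in PLC/PRF/5 (1.74 to 1.86), and on the TPM scale 0.848 in HepG2 and 1.42 in PLC/PRF/5, so that the direction in HepG2 depends on the scaling. All 10 genes together held 1682 fragments of each 1000000 in treated and 1619 in control HepG2, and 623 in treated and 381 in control PLC/PRF/5. The ratio of that sum was 1.04 in HepG2, which turned to 0.825 on the TPM scale and to 1.20 with totals that leave out mitochondrial genes, and 1.64 in PLC/PRF/5 (1.30 and 1.79). AKR1C genes made up between 75.7% and 83.1% of it.

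The promoters of AKR1C1 and AKR1C2 are shown because these neighbours responded unequally in PLC/PRF/5 while their start regions are nearly the same. The windows (RefSeq, GRCh38.p14) run from 250 bases before to 50 bases after the start site, at chr10:4963165-4963464 on the plus strand for AKR1C1 and chr10:5003808-5004107 on the minus strand for AKR1C2. In GENCODE 29 the AKR1C2 gene begins at base 5018031, upstream of its window here. The 2 windows were 97.3% identical over 296 aligned columns, with 4 substituted bases and a gap of 4 bases, which capitals mark.
AKR1C1: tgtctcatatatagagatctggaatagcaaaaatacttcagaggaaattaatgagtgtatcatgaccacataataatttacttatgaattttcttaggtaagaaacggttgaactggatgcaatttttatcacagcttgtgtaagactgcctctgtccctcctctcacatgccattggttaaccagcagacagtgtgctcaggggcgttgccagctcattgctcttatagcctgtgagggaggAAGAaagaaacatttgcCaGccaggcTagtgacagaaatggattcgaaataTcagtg
AKR1C2: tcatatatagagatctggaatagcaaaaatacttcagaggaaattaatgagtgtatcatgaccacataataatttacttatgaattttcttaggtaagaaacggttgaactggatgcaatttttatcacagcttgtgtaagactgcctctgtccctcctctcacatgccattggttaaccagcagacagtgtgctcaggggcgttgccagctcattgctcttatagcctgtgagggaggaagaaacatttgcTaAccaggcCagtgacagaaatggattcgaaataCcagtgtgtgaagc

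The AKR1C1 window was at most 75.7% identical to the 2 windows of AKR1C3 and 62.4% identical to that of AKR1C4. A window was at hand for 9 of the 10 genes, AKR1B10 being the other. They were searched on both strands for 4 motifs. The antioxidant response element TGACNNNGC, bound by NRF2, was found in 13.4% of all 35116 windows and, among the 9 genes, in AKR7A2 alone. The core GCGTG of the xenobiotic response element was in 36.5% of all windows, and in those of AKR1B1, AKR7A2 and AKR7A3. The sterol regulatory element TCACNCCAC was in 1.13% of all windows and in none of the 9 genes. The C/EBP-ATF element TGATGNAA was in 3.62% of all windows and in that of AKR1D1. In the AKR7A2 window at chr1 that starts at base 19312097, the antioxidant motif lay at -156 to -148 and at -95 to -87, and on the other strand at -167 to -159, and the xenobiotic core at -112 to -108, with no overlap between motifs. A match is a description of letters, and sites outside these 300 bases were not searched.

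Of the family genes outside the 10, only KCNAB2, a potassium channel subunit with an aldo-keto reductase fold, was measured. It had 2.07 FPKM in treated and 1.94 FPKM in control HepG2, and 1.16 FPKM in treated and 0.407 FPKM in control PLC/PRF/5. The PLC/PRF/5 ratio was 2.85 (95% counting interval 2.19 to 3.74), from 188 and 83 fragments. That ratio was above 1 on the deposited and the TPM scale (2.26) alike. KCNAB1, KCNAB3, AKR7L and AKR7A2P1 stayed at 0.524 FPKM or less in all 4 libraries, and AKR1B15, AKR1C8P and AKR1E2 were not analysed here.

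Genes that share a pathway with the family were read from lists on the deposited scale, each beside the median of all 12838 measured genes, -0.16 in HepG2 and -0.12 in PLC/PRF/5. The medians depend on the scaling, and the NRF2 target median, for one, became 0.07 in HepG2 with median-of-ratios scaling and -0.32 in PLC/PRF/5 on the TPM scale. The 8 measured AKR genes had a median log2 ratio of -0.21 in HepG2 and 0.48 in PLC/PRF/5. The 20 measured NRF2 targets had medians of -0.13 and 0.02, with 4 above 0 and 15 below in HepG2, and 11 above and 9 below in PLC/PRF/5. Above 0 were 17.6% of all genes in HepG2 and 29.1% in PLC/PRF/5. The cystine transporter gene SLC7A11 had 17.2 FPKM in treated and 7.25 FPKM in control HepG2, and 15.6 FPKM in treated and 9.98 FPKM in control PLC/PRF/5. Its log2 ratios were 1.14 in HepG2 and 0.60 in PLC/PRF/5. The pentose phosphate pathway genes PGD and TKT were below 0 in both lines, PGD at -0.56 and -0.57 and TKT at -0.53 and -0.40. The 8 NRF2 regulators had medians of -0.05 and 0.01, with the autophagy receptor gene SQSTM1 at 0.40 in HepG2 and 0.18 in PLC/PRF/5, the NRF2 partner gene MAFG at 0.18 and 0.32, the NRF2 inhibitor gene KEAP1 at -0.24 and -0.08, and CUL3, whose product works with KEAP1, at -0.07 and -0.16. No gene of any list passed the shared limma fit, where 0.00% of all genes did.

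Steroid, bile acid and retinoid genes showed single large values within lists that lay near the median. Of 10 measured genes of steroid reduction and dehydrogenation, all 10 were below 0 in HepG2, where 82.4% of all genes were, and 6 in PLC/PRF/5, where 70.9% were. Their medians were -0.27 and -0.24. HSD17B7, which serves sterol synthesis as well as oestrogen activation, had 1.57 FPKM in treated and 6.47 FPKM in control HepG2, and 1.87 FPKM in treated and 4.77 FPKM in control PLC/PRF/5. Among the others named, the log2 ratio in HepG2 and in PLC/PRF/5 was -0.47 and -0.56 for HSD17B12, -0.38 and -0.61 for SRD5A3, and -0.33 and -0.34 for HSD17B10. The 6 measured genes of bile acid synthesis had medians of -0.12 and 0.13. There the sterol hydroxylase CYP27A1 was at 36.1 FPKM in treated and 41.0 FPKM in control HepG2, and at 14.4 FPKM in treated and 6.82 FPKM in control PLC/PRF/5, and ACOX2 had log2 ratios of -0.27 and 0.52, SCP2 -0.18 and -0.34, and BAAT 0.07 and -0.70. The 9 genes of retinoid metabolism had medians of -0.20 and -0.11. The retinal reductase RDH11 had 8.68 FPKM in treated and 20.6 FPKM in control HepG2, and 11.7 FPKM in treated and 21.4 FPKM in control PLC/PRF/5. The retinal dehydrogenase ALDH1A1 had 88.6 FPKM in treated and 101.7 FPKM in control HepG2, and 467.4 FPKM in treated and 654.5 FPKM in control PLC/PRF/5, a line order opposite to that of AKR1B10. RETSAT had log2 ratios of -0.31 and -0.11, and RDH13 of -0.29 and -0.12.

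The polyol pathway after AKR1B1 was measured through 3 genes, with medians of -0.13 in HepG2 and 0.12 in PLC/PRF/5. SORD, which oxidises sorbitol to fructose, had log2 ratios of -0.26 and 0.22, the fructokinase KHK -0.13 and 0.12, and TKFC -0.09 and -0.04. All 3 were called higher in HepG2 than in PLC/PRF/5 by limma, as AKR1B1 and 23.1% of all genes were. The 16 measured aldehyde and alcohol dehydrogenases had medians of -0.22 and -0.07, with none past 2-fold in either line. The largest mean change among them was in ADH6, at -0.47 and -0.33, followed by ALDH9A1 at -0.30 and -0.39, ALDH1B1 at -0.36 and -0.23 and ADH5 at -0.41 and -0.17. By line, 11 of the 16 were called higher in HepG2 (23.1% of all genes) and 4 lower (31.8%).

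Genes with the most similar profile were found from the root mean square distance of centred log2(FPKM + 1) over the 4 libraries. The nearest to AKR1C1 were RAB17 (distance 0.052), SELENOP (0.081) and CPLX2 (0.091). RAB17 had 21.7 FPKM in treated and 19.7 FPKM in control HepG2, and 6.37 FPKM in treated and 2.78 FPKM in control PLC/PRF/5. The nearest to AKR1D1 were MIR4429 (0.052), DPYSL2 (0.058) and DAB2 (0.058). MIR4429 is a microRNA gene, with 2.02 FPKM in treated and 4.10 FPKM in control HepG2, and 0 FPKM in treated and control PLC/PRF/5. In a gene that short, such values rest on few fragments. AKR1B10 had no close match: the nearest were MT1G (0.497), FREM1 (0.517) and COL2A1 (0.558), and each of these was lower in treated than in control HepG2. A profile of 4 libraries holds little detail, and likeness is given as a description.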

How the data were processed

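RNA-seq libraries of HepG2 and PLC/PRF/5 cells were used as the deposited table of FPKM, with 1 library in each of 4 groups taken from the labels. TopHat2 and the build GRCh38 are named in the submitters' processing notes; its version was not given in the sources used here, nor were the counter, the annotation and the FPKM program. Gene names, lengths (union of exons) and positions are from GENCODE 29 on GRCh38.

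Fragments were recovered from the FPKM: with GENCODE lengths 24452 genes (75.3%) gave whole fragments within 0.001, 7617 were solved from ratios between libraries, and 410 (none above 0.451 FPKM) were not solved. Of the 10 family genes 5 were whole with GENCODE lengths; AKR1B1, AKR1B10, AKR1C3, AKR1D1 and AKR7A3 were solved from ratios, and for AKR7A3 the fragments could be a multiple of those given. Library totals were 20350701 (treated HepG2), 16722204 (control HepG2), 16982560 (treated PLC/PRF/5) and 21387301 (control PLC/PRF/5), so 3 fragments of a 1 kb gene correspond to 0.140 to 0.179 FPKM.

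Ratios are of FPKM, with 95% exact conditional binomial (Clopper-Pearson) intervals; differences of responses have Wald intervals. Both cover counting error only, since each group held 1 library. PCR copies of a molecule were not told apart by identifiers, so the intervals may be too narrow even for that error. Log2 ratios are of FPKM + 1, a pseudocount that understates the change of low genes; 2-fold counts took genes at 1 FPKM or more in either library. limma 3.58.1 (R 4.3.3; lmFit, eBayes with trend) was fitted on log2(FPKM + 1) of 12838 genes at 1 FPKM or more in 2 or more libraries, with line and treatment as terms and 1 residual degree of freedom, and Benjamini-Hochberg adjustment over all genes. The eBayes step added 3.04 prior degrees of freedom from all genes tested, so each SE is moderated. The scripts were tested on simulated data.

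Named were all 10 genes, other family genes, up to 4 genes of each list with the largest mean change, and the 3 nearest profiles of AKR1B10, AKR1C1 and AKR1D1; a gene that this rule selects is not reported here by name. The genes, lists and tests were chosen with earlier results of these data known. Alternatives were pseudocounts of 0.1 and 5, other filters on low values, 1.5-fold and 4-fold thresholds, the TPM scale, median-of-ratios scaling, totals without mitochondrial genes, and limma without trend, with robust moderation, without the block or as limma-voom on the recovered fragments.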

Additional observations from a re-analysis of the deposited data

Results flagged for a closer look

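AKR1B1 and AKR1C3 moved in opposite directions in the lines, which singled them out; the difference between the lines was not tested. For AKR1B1 the log2 ratio of treated over control was 0.58 in PLC/PRF/5 and -0.31 in HepG2, a difference of 0.8889. For AKR1C3 it was 0.73 in PLC/PRF/5 and -0.11 in HepG2, a difference of 0.8381. The direction of AKR1C3 in HepG2 turned with median-of-ratios scaling (ratio 1.07) and with totals that leave out mitochondrial genes (1.06), while that of AKR1B1 was the same under all 4 scalings.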

How the results depend on the processing

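No paired analysis was possible by replicate, because the labels give no replicate numbers. The limma treatment fit had the cell line as its block and the line fit had treatment; without the block limma called 0 genes for treatment and 2345 higher and 3093 lower for the line. Counts of genes past the fold threshold moved with the settings; the main counts, higher and lower, were 124 and 264 in HepG2, 194 and 239 in PLC/PRF/5, and 1391 and 1812 between the controls (HepG2 over PLC/PRF/5). In HepG2 they were 239 and 530 with a pseudocount of 0.1, 9 and 35 with 5, 21 and 80 at 5 FPKM or more, 288 and 684 at 1.5-fold, 6 and 26 at 4-fold, 445 and 1280 on the TPM scale, and 256 higher with totals that leave out mitochondrial genes. In PLC/PRF/5 they were 447 and 484 with a pseudocount of 0.1, 18 and 36 with 5, 38 and 61 at 5 FPKM or more, 559 and 666 at 1.5-fold, 3 and 32 at 4-fold, 451 and 1119 on the TPM scale, and 355 higher with totals that leave out mitochondrial genes. Among the controls they were 2112 higher with a pseudocount of 0.1, 429 and 510 with 5, 785 and 865 at 5 FPKM or more, 2746 and 3283 at 1.5-fold, 232 and 470 at 4-fold, and 3204 and 2917 on the TPM scale. The limma treatment effect was called in 0 genes except on the TPM scale (65 higher, 4922 lower), and the line effect in 2971 higher and 4078 lower, or 1933 and 2419 at 5 FPKM or more, where fewer genes were tested. On the TPM scale the limma treatment effects of AKR1B1, AKR1C2 and AKR1C3 turned to -0.18, -0.064 and -0.011; the cause was not tested. The other 57 counts stayed within 1.5 times, but some of them say little about stability. The 2-fold counts without the filter on low values had to equal the main ones. With a pseudocount of 1, a gene below 1 FPKM in both libraries cannot reach 2-fold. The limma treatment counts among the 57 were 0 in the main fit and 0 in the alternative. Depth limits AKR1C4 and AKR7A3, and AKR1D1 in PLC/PRF/5, each with 27 fragments or fewer.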
